A study of Mus musculus with 15 samples.

Results

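The 9 epithelial-mesenchymal transition genes described here, Cdh1, Cdh2, Cdh3, Epcam, Vim, Zeb1, Snai1, Snai2 and Twist1, were taken by symbol from the gene counts of 15 libraries of mouse embryonic stem cells (mESCs), in which 23412 genes are listed. All 9 were listed in every library, and all 9 were among the 14508 genes that passed the filter on low counts. The study examined how STAG1 and STAG2, the alternative STAG subunits of the cohesin complex, contribute to gene expression, by polyA RNA-seq of v6.5 mESCs, a male line grown on gelatin. The 5 conditions had 3 libraries each: wild-type cells with siGLO (a control siRNA), wild-type cells with siStag1 (an siRNA pool against Stag1), Stag1-/- cells with siGLO, Stag2-/- cells with siGLO, and Stag2-/- cells with siStag1. All cells, controls included, carried an siRNA at 50 nM for 48 h. Each knockout genotype was 1 CRISPR clone, so the genotype and the clone cannot be told apart. The Stag1-/- clone has an in-frame deletion within Stag1, and the Stag2-/- clone has a deletion that spans several exons of Stag2. The study calls its replicates biological, but each genotype's were of 1 clone and the labels do not say whether they were separate cultures, so the p-values measure only the spread between these libraries.

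Epithelial cells are held together by E-cadherin (Cdh1) at adherens junctions, and in an epithelial-mesenchymal transition they lose these junctions, switch to N-cadherin (Cdh2), fill their cytoskeleton with vimentin (Vim) and become motile. The switch is driven by transcription factors of the Snail (Snai1, Snai2), Zeb (Zeb1) and Twist (Twist1) families, several of which repress Cdh1 by binding short E-box sequences in its promoter. mESCs grow as compact colonies rich in E-cadherin and EpCAM, and their descendants pass through such a transition when the primitive streak forms at gastrulation.

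Counts on genes ranged from 14982560 to 19070126 per library, with a median of 17700059, and the limit that a count of 0 allows (3 counts) was 0.157 to 0.2 CPM. Levels are given as normalized counts, which are read counts scaled to a common library size by TMM. Stag2 normalized counts were 663 to 739 in the Stag2-/- siGLO libraries and 851 to 940 in the Stag2-/- siStag1 libraries, against 2329 to 2334 in wild-type siGLO. Stag1 was at 353 to 517 in wild-type siStag1 and at 629 to 781 in Stag2-/- siStag1, against 2012 to 2288 in wild-type siGLO. In the Stag1-/- libraries Stag1 was at 1826 to 2368. This RNA level checks nothing because the deletion is in frame and leaves most of the transcript. By western blot the study detected no STAG1 protein in this clone. All 8 embryonic stem cell markers were above 0 in every condition, and 1 (Pou5f1, -0.35 on the log2 scale) fell in Stag1-/- siGLO, 3 in Stag2-/- siGLO and 6 in Stag2-/- siStag1, where 9.93%, 14.4% and 21.3% of all genes tested fell, with the pluripotency factor Esrrb the largest fall in both Stag2-/- conditions (-0.83 and -2.64). Under the replicate block 2 fell in Stag1-/- siGLO. The list had summed normalized counts of 107414 to 112231 in wild-type siGLO and 63892 to 83043 in Stag2-/- siStag1. The largest shift in another cell type's list was in the 8 primitive endoderm markers, all of which fell in Stag1-/- siGLO, in Stag2-/- siGLO and in Stag2-/- siStag1. Their summed normalized counts were 8759 to 9593 in wild-type siGLO, 7860 to 8360 in wild-type siStag1, 480 to 878 in Stag1-/- siGLO, 1254 to 2276 in Stag2-/- siGLO and 1491 to 2183 in Stag2-/- siStag1. The largest falls were in the endocytic receptor Cubn in Stag1-/- siGLO (-4.48) and the endoderm factor Sox17 in both Stag2-/- conditions (-2.72 and -2.95). No primitive endoderm marker was at 0 in any condition.

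The transition genes moved differently in Stag1-/- and Stag2-/- cells. In Stag1-/- cells the epithelial genes Epcam and Cdh3 rose, and the mesenchymal genes Vim and Zeb1 fell. In Stag2-/- cells the mesenchymal genes Cdh2 and Vim rose together with Epcam, and Snai1 fell. In Stag2-/- siStag1 cells Cdh2, Vim, Epcam and Twist1 rose, and Snai1 fell. Cdh1, the gene that defines the epithelial state, did not pass the test in any comparison with wild-type siGLO. The counts that follow are from edgeR's quasi-likelihood test, with an adjusted p under 0.1 over all genes tested. In Stag1-/- siGLO 4 of the 9 genes passed, where 20.0% of all genes tested did, and the libraries of 6 members did not overlap, where 31.7% of all genes did not. In Stag2-/- siGLO 4 of the 9 genes passed, against 28.3% of all genes, and 4 did not overlap, against 35.7%. In Stag2-/- siStag1 5 of the 9 genes passed, against 43.9% of all genes, and 5 did not overlap, against 47.3%. By direction, 10.1% of all genes rose and 9.93% fell in Stag1-/- siGLO, 13.9% rose and 14.4% fell in Stag2-/- siGLO, and 22.6% rose and 21.3% fell in Stag2-/- siStag1. With 9 genes, the share of members called stood about 1 to 2 genes above the share of all genes in each comparison. The median log2 fold change of the 9 genes was 0.20 in Stag1-/- siGLO, 0.43 in Stag2-/- siGLO and 0.72 in Stag2-/- siStag1, where the medians of all genes were -0.01, 0.01 and 0.01. These comparisons share the wild-type siGLO libraries. In bulk RNA, fewer cells that express a gene and less of its RNA in each cell cannot be told apart.

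**Figure D1:**
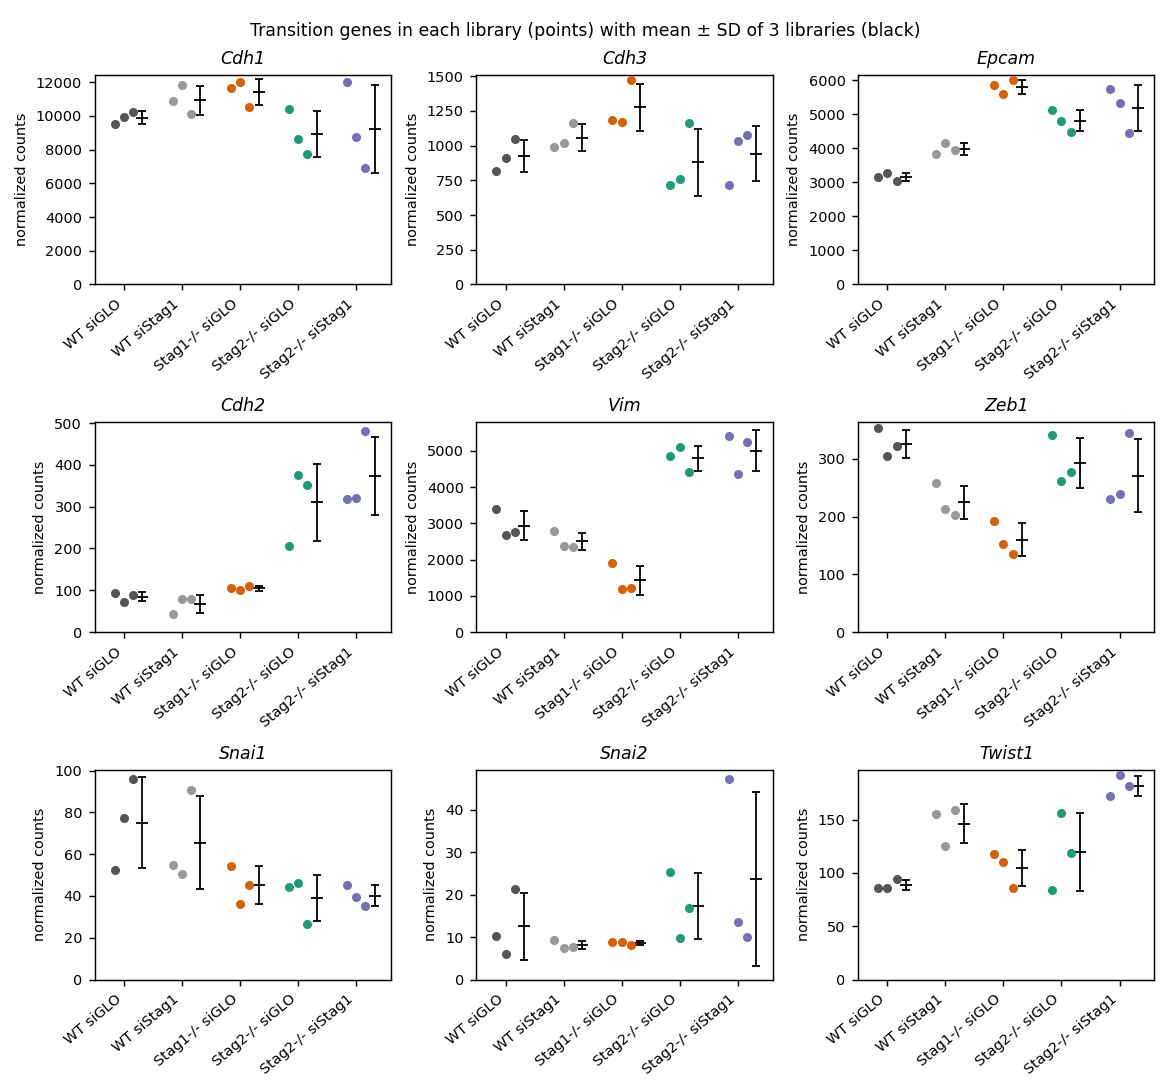
Normalized counts of the 9 transition genes in each library (points, 3 per condition), with the mean and SD of each condition in black; every vertical axis starts at 0. Epcam is lowest in the wild-type siGLO libraries (3028 to 3265), Cdh2 is above 200 only in the Stag2-/- libraries, and Vim and Zeb1 are lowest in the Stag1-/- libraries.

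Levels per kilobase of exon in wild-type siGLO cells were highest for the epithelial adhesion genes. Cdh1 was at 2166 ± 84.2 normalized counts per kb (SD, n = 3), Epcam at 1434 ± 53.8, Vim at 619 ± 82.1 and Cdh3 at 211 ± 26.4. The remaining members were far lower on this scale: Twist1 at 54.3 ± 2.90, Snai1 at 46.4 ± 13.5, Zeb1 at 31.7 ± 2.39, Cdh2 at 10.5 ± 1.35 and Snai2 at 6.21 ± 3.88. Vim was the mesenchymal member with the highest level per kb in these cells, above Cdh3.

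Cdh1 encodes E-cadherin, the calcium-dependent adhesion molecule of epithelial adherens junctions, and lies on the plus strand at chr8:106603351-106670246 (mm10, GENCODE M21). Normalized counts of Cdh1 were 9498, 9955 and 10263 in wild-type siGLO, 11663, 12019 and 10540 in Stag1-/- siGLO, and 10878, 11826 and 10091 in wild-type siStag1. In Stag2-/- siGLO they were 10431, 8630 and 7734, and in Stag2-/- siStag1 they were 12033, 8727 and 6900. The Stag1-/- libraries were all above the wild-type siGLO libraries, whereas both Stag2-/- conditions overlapped them and were more spread out. The SD was 28.2% of the mean in Stag2-/- siStag1 and 3.89% in wild-type siGLO. Against wild-type siGLO the log2 change was 0.20 (SE 0.15, edgeR adjusted p = 0.422) in Stag1-/- siGLO, -0.15 (SE 0.15, adjusted p = 0.521) in Stag2-/- siGLO and -0.10 (SE 0.15, adjusted p = 0.628) in Stag2-/- siStag1. Without Stag2-/- siStag1 replicate 1 the last value was -0.34 and passed (edgeR adjusted p = 0.0417). Without Stag2-/- siStag1 replicate 3 it was 0.068 (adjusted p = 0.742), so its direction depended on single libraries.

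Cdh3 encodes P-cadherin, a classical cadherin of basal epithelia and placenta, and ends 46053 bp before the start of Cdh1 on the same strand (chr8:106510891-106557297). Wild-type siGLO libraries held 819, 908 and 1048 normalized counts of Cdh3, and Stag1-/- siGLO libraries held 1184, 1170 and 1470. The groups did not overlap, and Cdh3 rose by a log2 fold change of 0.46 (SE 0.18, edgeR adjusted p = 0.0972, or 0.00399 under the replicate block, a fit that adds the replicate number as a term). The unblocked call was close to the threshold, and leaving out any of 10 of the 15 libraries ended it, with a log2 change of 0.35 (adjusted p = 0.27) without Stag1-/- siGLO replicate 3 and 0.38 (0.263) without wild-type siGLO replicate 1. The others were wild-type siGLO replicate 2, Stag1-/- siGLO replicates 1 and 2, all 3 wild-type siStag1 libraries and replicate 2 of each Stag2-/- condition, without which the adjusted p was 0.101 to 0.217. In Stag2-/- siGLO Cdh3 was at 716, 760 and 1159, and in Stag2-/- siStag1 at 715, 1033 and 1078, which overlapped wild-type siGLO in each case. The log2 fold changes were -0.07 (SE 0.18, adjusted p = 0.801) and 0.03 (SE 0.18, adjusted p = 0.926).

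Cdh1 and Cdh3 share chromosome 8, whose other genes were lower in the knockout libraries. The median log2 fold change of the 759 other genes tested on chromosome 8 was -0.19 in Stag1-/- siGLO, -0.21 in Stag2-/- siGLO, -0.23 in Stag2-/- siStag1 and 0.00 in wild-type siStag1. By library, the chromosome 8 median relative to the wild-type siGLO mean was between -0.23 and -0.12 in all knockout libraries and between -0.01 and 0.01 in all wild-type libraries. Its part in the Cdh1 and Cdh3 values was not tested. Between Stag1-/- and Stag2-/- siGLO the chromosome 8 median was 0.02.

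Epcam encodes the epithelial cell adhesion molecule EpCAM, a surface glycoprotein of epithelia and pluripotent cells (chr17:87635979-87651129, plus strand). Its normalized counts were 3152, 3265 and 3028 in wild-type siGLO and 3826, 4161 and 3942 in wild-type siStag1. They were 5851, 5585 and 6000 in Stag1-/- siGLO, 5119, 4819 and 4495 in Stag2-/- siGLO, and 5750, 5350 and 4441 in Stag2-/- siStag1. In ascending order of the means, the steps from wild-type siGLO to wild-type siStag1 and from there to Stag2-/- siGLO were free of overlap, whereas those to Stag2-/- siStag1 and to Stag1-/- siGLO were not. Epcam rose 1.85-fold in Stag1-/- siGLO (log2 fold change 0.88, SE 0.09, edgeR adjusted p = 1.04e-05). It rose 1.53-fold in Stag2-/- siGLO (0.61, SE 0.09, adjusted p = 0.000217) and 1.65-fold in Stag2-/- siStag1 (0.72, SE 0.09, adjusted p = 1.62e-05).

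The RefSeq promoter table (GRCm38.p6) matched 4 of the 9 genes, Epcam, Vim, Snai1 and Twist1. The 250 bases before the start were searched for CAGGTG and CACCTG, the same E-box read on either strand, which is the word that Snail and Zeb proteins bind. Of the 4 windows, those of Epcam and Snai1 held it, and they are shown because Epcam rose in every knockout condition and Snai1 encodes a factor that binds the word. Capitals mark the E-boxes, which in Epcam begin 187 and 19 bases before the start and in Snai1 126 bases before it.
Epcam, chr17:87635729-87635978, plus strand: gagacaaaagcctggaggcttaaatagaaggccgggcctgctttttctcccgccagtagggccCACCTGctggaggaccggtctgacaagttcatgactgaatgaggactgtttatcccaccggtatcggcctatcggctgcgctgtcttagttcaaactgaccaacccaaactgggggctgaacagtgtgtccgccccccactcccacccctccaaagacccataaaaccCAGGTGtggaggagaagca
Snai1, chr2:167537945-167538194, plus strand: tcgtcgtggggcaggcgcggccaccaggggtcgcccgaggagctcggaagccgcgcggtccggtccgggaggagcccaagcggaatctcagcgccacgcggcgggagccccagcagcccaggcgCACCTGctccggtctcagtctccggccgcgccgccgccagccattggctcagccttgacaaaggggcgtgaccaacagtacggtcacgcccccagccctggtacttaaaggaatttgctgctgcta
Over all 32851 promoter windows of this length, 17.2% held the word. A match is a description of the letters and not a binding site.

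Cdh2 encodes N-cadherin, the adhesion molecule of neural and mesenchymal cells (chr18:16588877-16809246, minus strand). It was low in wild-type siGLO, with normalized counts of 92.6, 72.2 and 89.0, and was at 104, 99.3 and 109 in Stag1-/- siGLO. In Stag2-/- siGLO the values were 205, 375 and 351, and in Stag2-/- siStag1 they were 318, 320 and 480. Every Stag2-/- library lay above every other library, and Stag2-/- siGLO replicate 1 was the lowest of these 6. Cdh2 rose 3.66-fold in Stag2-/- siGLO (log2 fold change 1.87, SE 0.25, edgeR adjusted p = 0.000114) and 4.4-fold in Stag2-/- siStag1 (2.14, SE 0.25, adjusted p = 9.8e-06). In Stag1-/- siGLO the libraries did not overlap wild-type siGLO either, but the log2 fold change of 0.30 (SE 0.26, adjusted p = 0.499) did not pass.

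Neural progenitors express Cdh2, and their markers moved in the same libraries. Of the 7 neural progenitor markers tested of 8 listed, 4 rose and 0 fell in Stag2-/- siGLO and in Stag2-/- siStag1, where 13.9% and 22.6% of all genes rose, among them Pax6, a neural transcription factor (log2 fold changes 2.71 and 3.48, SE 0.32 and 0.33, edgeR adjusted p = 3.70e-05 and 8.68e-07). In Stag1-/- siGLO 1 fell (Sox1, another neural factor, -2.90, SE 0.60), and with the block 1 rose and 1 fell. The summed level of the list was 1227 to 1528 normalized counts in wild-type siGLO, 1110 to 1320 in Stag1-/- siGLO, 1350 to 1570 in wild-type siStag1, 1904 to 3678 in Stag2-/- siGLO and 3135 to 5196 in Stag2-/- siStag1. The lowest of the Stag2-/- siGLO values, 1904, was in replicate 1, the library with the lowest Cdh2 of the Stag2-/- libraries. No marker of this list was at 0 in all libraries of a condition. Its part in the Cdh2 result was not tested.

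Vim encodes vimentin, the intermediate filament of mesenchymal cells (chr2:13573927-13582826, plus strand). Normalized counts of Vim were 3385, 2669 and 2761 in wild-type siGLO and 1894, 1186 and 1208 in Stag1-/- siGLO. They were 4863, 5102 and 4416 in Stag2-/- siGLO and 5418, 4370 and 5237 in Stag2-/- siStag1. The Stag1-/- libraries were thus all below, and the Stag2-/- libraries all above, the wild-type libraries. Vim fell by 1.04 on the log2 scale in Stag1-/- siGLO (SE 0.16, edgeR adjusted p = 0.000291). It rose by 0.71 in Stag2-/- siGLO (SE 0.15, adjusted p = 0.00435) and by 0.77 in Stag2-/- siStag1 (SE 0.15, adjusted p = 0.00104), again on the log2 scale. Parietal endoderm, a derivative of primitive endoderm, is rich in Vim. The primitive endoderm markers fell in all 3 knockout conditions, while Vim fell in one and rose in the others, and the part of such cells in these values was not tested.

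Zeb1 encodes a zinc finger and homeodomain repressor of Cdh1 and other epithelial genes (chr18:5591860-5775467, plus strand). Its normalized counts were 352, 304 and 321 in wild-type siGLO, and 192, 153 and 136 in Stag1-/- siGLO. These groups did not overlap, and Zeb1 fell by 1.03 on the log2 scale (SE 0.18, edgeR adjusted p = 0.00103). In Stag2-/- siGLO it was at 342, 261 and 277 and in Stag2-/- siStag1 at 231, 238 and 344, which overlapped wild-type siGLO (log2 fold changes -0.15 and -0.27, SE 0.17 each, adjusted p = 0.569 and 0.248). Without Stag2-/- siStag1 replicate 3 the second of these was -0.48 with an adjusted p of 0.0509, which passes. The antisense gene Gm10125 overlaps exons of Zeb1 and shares 49 stretches of 150 bases with it, and whether the counting used strand is not given in the sources used here. Gm10125 itself had 0 to 7 raw counts per library, far below the 150 to 377 of Zeb1.

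Snai1 encodes Snail, the zinc finger repressor that is the classic inducer of the transition (chr2:167538195-167542814, plus strand). It was low, with 25 to 99 raw counts per library. Normalized counts were 52.4, 77.3 and 95.8 in wild-type siGLO, 54.1, 36.0 and 45.2 in Stag1-/- siGLO, 44.4, 46.3 and 26.4 in Stag2-/- siGLO, and 45.3, 39.5 and 35.4 in Stag2-/- siStag1. Wild-type siGLO replicate 1 was close to the knockout libraries, and of the knockout conditions only Stag1-/- siGLO overlapped wild-type siGLO. Snai1 fell by 0.94 on the log2 scale in Stag2-/- siGLO (SE 0.30, edgeR adjusted p = 0.0378) and by 0.90 in Stag2-/- siStag1 (SE 0.30, adjusted p = 0.0276). The log2 fold change in Stag1-/- siGLO was -0.73 (SE 0.30, adjusted p = 0.115), and it passed under the replicate block (adjusted p = 0.0832). The Stag2-/- siGLO call ended without wild-type siGLO replicate 2 (adjusted p = 0.102), wild-type siGLO replicate 3 (0.162) or Stag2-/- siGLO replicate 3 (0.139), and the Stag2-/- siStag1 call ended without wild-type siGLO replicate 3 (0.128). The Stag1-/- siGLO value passed without wild-type siGLO replicate 1 (adjusted p = 0.0676), and narrowly without wild-type siStag1 replicate 3 or Stag2-/- siGLO replicate 3 (0.0988 and 0.0995).

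Snai2 encodes Slug, the Snail paralog of neural crest and mesoderm (chr16:14705852-14709385, plus strand), and was near the limit of measurement, with 6 to 48 raw counts per library. Normalized counts of Snai2 were 10.3, 6.10 and 21.3 in wild-type siGLO, 8.86, 8.76 and 8.14 in Stag1-/- siGLO, 25.4, 9.70 and 16.9 in Stag2-/- siGLO, and 47.3, 13.5 and 10.1 in Stag2-/- siStag1. Each knockout condition overlapped wild-type siGLO. Log2 fold changes against wild-type siGLO were -0.55 (SE 0.61), 0.46 (SE 0.57) and 0.91 (SE 0.55) in that order, with edgeR adjusted p = 0.613, 0.605 and 0.215. The value for Stag2-/- siStag1 was -0.094 without its replicate 1, and it passed without wild-type siGLO replicate 3 or Stag2-/- siStag1 replicate 3 (adjusted p = 0.0876 and 0.0964), so no direction can be read at this depth.

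Twist1 encodes a basic helix-loop-helix factor of mesoderm and neural crest (chr12:33957671-33959829, plus strand). Wild-type siGLO libraries had 86.0, 85.4 and 93.9 normalized counts of Twist1, Stag1-/- siGLO had 118, 110 and 85.9, and Stag2-/- siGLO had 83.6, 156 and 118. In wild-type siStag1 the values were 155, 125 and 159, and in Stag2-/- siStag1 they were 172, 191 and 181. Both siStag1 groups lay above every wild-type siGLO library, and in the order of the means only the step from wild-type siStag1 to Stag2-/- siStag1 was free of overlap. Twist1 rose 2.05-fold in Stag2-/- siStag1 (log2 fold change 1.04, SE 0.20, edgeR adjusted p = 0.000879). The change was 0.24 (SE 0.21, adjusted p = 0.493) in Stag1-/- siGLO and 0.43 (SE 0.21, adjusted p = 0.15) in Stag2-/- siGLO, on the log2 scale. Without Stag2-/- siGLO replicate 1 the last value was 0.63 and passed (adjusted p = 0.0282).

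**Figure D2:**
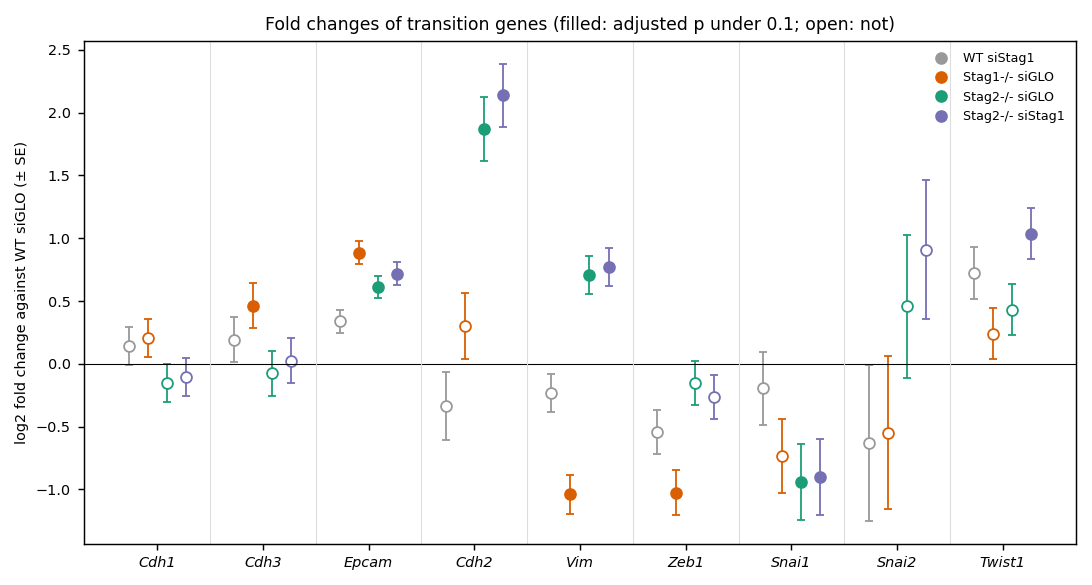
Log2 fold changes of the 9 genes against wild-type siGLO with their standard errors from the edgeR fit; filled points passed an adjusted p of 0.1 and open points did not. Cdh2 reached 1.87 and 2.14 in the Stag2-/- conditions, Vim stood at -1.04 in Stag1-/- and 0.71 in Stag2-/- cells, Epcam lay above 0 in every condition, and no wild-type siStag1 point is filled.

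The ratio of an epithelial to a mesenchymal member within a library gives the balance on the scale of normalized counts per kb. Cdh1 exceeded Cdh2 by a ratio of 209 ± 31.5 (SD, n = 3) in wild-type siGLO, 194 ± 22.0 in Stag1-/- siGLO, 56.4 ± 28.8 in Stag2-/- siGLO and 46.7 ± 20.7 in Stag2-/- siStag1. In wild-type siStag1 it was 316 ± 124. The highest Stag2-/- ratio was 89.6, in Stag2-/- siGLO replicate 1, and the lowest wild-type siGLO ratio was 181, so these groups were separate. Cdh1 thus remained the more abundant cadherin in every library, with a lowest ratio of 25.3. Epcam exceeded Vim by a ratio of 2.34 ± 0.316 in wild-type siGLO, 9.20 ± 2.20 in Stag1-/- siGLO, 2.17 ± 0.119 in Stag2-/- siGLO and 2.26 ± 0.408 in Stag2-/- siStag1. The lowest Stag1-/- ratio was 6.68 and the highest ratio of any other condition was 3.77, in wild-type siStag1, whose mean was 3.46 ± 0.427. Epcam and Vim both rose in Stag2-/- cells, and their ratio overlapped that of wild-type siGLO. Cdh1 exceeded its neighbour Cdh3 by a ratio of 10.3 ± 0.878 in wild-type siGLO and 8.72 ± 1.61 in Stag1-/- siGLO, and this ratio overlapped wild-type siGLO in every condition.

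**Figure D3:**
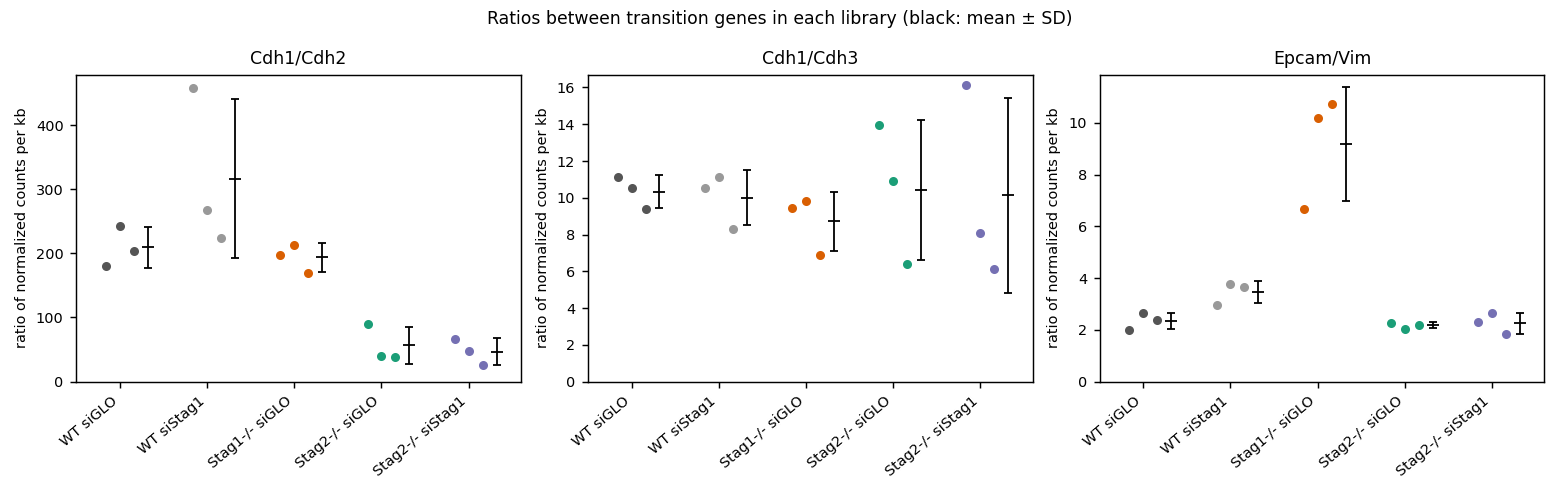
Ratios of normalized counts per kb in each library (points) with the mean and SD of 3 libraries in black, for Cdh1 to Cdh2, Cdh1 to Cdh3 and Epcam to Vim; each axis starts at 0. The Stag2-/- libraries have the lowest Cdh1 to Cdh2 ratios (25.3 to 89.6), and the Stag1-/- libraries have the highest Epcam to Vim ratios (6.68 to 10.7).

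Compared directly, Stag1-/- siGLO and Stag2-/- siGLO cells differed in 5 of the 9 genes, against 25.7% of all genes tested (12.7% higher and 12.9% lower in Stag1-/- cells), and the libraries of 7 did not overlap, against 31.0%. Cdh3 and Epcam were higher in Stag1-/- cells (log2 differences 0.54, SE 0.18, and 0.27, SE 0.09, edgeR adjusted p = 0.0468 and 0.044). Cdh2, Vim and Zeb1 were lower there, with log2 differences of -1.57 (SE 0.25, adjusted p = 0.000444), -1.75 (SE 0.16, adjusted p = 4.58e-06) and -0.87 (SE 0.18, adjusted p = 0.0032). Cdh1 was at a log2 difference of 0.35 (SE 0.15, adjusted p = 0.119), and it passed under the replicate block (adjusted p = 0.0304), without Stag2-/- siGLO replicate 1 (adjusted p = 0.0483), and without Stag2-/- siStag1 replicate 1 or 3 (adjusted p = 0.0321 and 0.0563). The Epcam call ended without Stag1-/- siGLO replicate 3 (adjusted p = 0.101) or Stag2-/- siGLO replicate 3 (0.145). The Cdh3 call ended without Stag1-/- siGLO replicate 3 (adjusted p = 0.155), Stag2-/- siGLO replicate 1 (0.149) or Stag2-/- siGLO replicate 2 (0.162), and 3 genes remained called without Stag1-/- siGLO replicate 3. The primitive endoderm markers also differed between the knockouts, with 6 of 8 lower in Stag1-/- cells.

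Knockdown of Stag1 in wild-type cells asked what acute loss of STAG1 does. No member passed in edgeR (0 of 9, against 0.248% of all genes tested), while 3 had an unadjusted p under 0.05 and DESeq2 called 2, Epcam and Twist1. The libraries of 3 members did not overlap, against 15.5% of all genes. Epcam was 0.34 higher on the log2 scale (SE 0.09, edgeR adjusted p = 0.263), which passed under the replicate block (adjusted p = 0.0562). Zeb1, at 258, 212 and 203 normalized counts, was at -0.54 (SE 0.18, adjusted p = 0.446), and Twist1 was at 0.72 (SE 0.20, adjusted p = 0.287). Vim, at 2780, 2388 and 2334, was at -0.23 (SE 0.15, adjusted p = 0.978). For the other members the values were 42.0, 78.2 and 79.3 for Cdh2, 54.8, 50.6 and 90.9 for Snai1, 9.32, 7.36 and 7.74 for Snai2, and 989, 1016 and 1166 for Cdh3. All of these overlapped wild-type siGLO. The primitive endoderm markers stood at 7860 to 8360 in these libraries.

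Within Stag2-/- cells, siStag1 asked what the loss of the remaining STAG protein adds. No member passed in edgeR (0 of 9, against 6.37% of all genes tested), 1 had an unadjusted p under 0.05, and DESeq2 called 1. That gene was Twist1, 0.61 higher on the log2 scale (SE 0.20, edgeR adjusted p = 0.112), which passed under the replicate block (adjusted p = 0.0583) and without Stag2-/- siGLO replicate 2 (adjusted p = 0.0377). It was also the 1 member whose libraries did not overlap, against 19.3% of all genes. The log2 fold changes were 0.27 (SE 0.23) for Cdh2, 0.06 (SE 0.15) for Vim and 0.11 (SE 0.09) for Epcam, with adjusted p = 0.618, 0.888 and 0.595. An interaction term, which asks if siStag1 acts differently in Stag2-/- and in wild-type cells, passed for 0 of 9 genes in edgeR, against 0.159% of all genes, with 0 at an unadjusted p under 0.05 and 0 called by DESeq2. For Twist1 this term was -0.12 on the log2 scale (SE 0.28, adjusted p = 0.999).

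Among cells with siStag1, Stag2-/- differed from wild-type in 5 of the 9 genes, against 37.5% of all genes tested, and the libraries of 6 did not overlap, against 45.3%. Cdh2 rose 5.55-fold (log2 fold change 2.47, SE 0.26, edgeR adjusted p = 4.78e-06). Vim rose by 1.00 (SE 0.15, adjusted p = 0.000163) and Epcam by 0.38 (SE 0.09, adjusted p = 0.00436) on the log2 scale. Snai1 fell by 0.71 (SE 0.30, adjusted p = 0.0908), and Snai2 rose by 1.54 (SE 0.59, adjusted p = 0.0584), at the raw counts given above. The Snai2 call ended without any 1 wild-type siStag1 library (adjusted p = 0.101 to 0.152) or without Stag2-/- siStag1 replicate 1, where its log2 fold change was 0.54 (adjusted p = 0.51). The Snai1 call ended without wild-type siStag1 replicate 3, where the value was -0.40 (adjusted p = 0.403), without Stag2-/- siStag1 replicate 2 or 3 (0.172 and 0.218), and without wild-type siGLO replicate 2 or Stag1-/- siGLO replicate 3 (0.11 and 0.103). Cdh1, at -0.25 (SE 0.15, adjusted p = 0.242), passed without Stag2-/- siStag1 replicate 1 (-0.49, adjusted p = 0.00798).

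Most of the listed genes that work with Cdh1 and Epcam at epithelial junctions rose in Stag1-/- cells, where 10.1% of all genes rose. Of 21 genes of tight junctions, desmosomes and keratins, 16 rose and 1 fell in Stag1-/- siGLO (18 and 1 with the block), and the median log2 fold change of the list was 0.57. The keratins Krt8, Krt18 and Krt19, which form the filaments of simple epithelia, rose by 1.39 (SE 0.31, edgeR adjusted p = 0.00621), 1.68 (SE 0.25, adjusted p = 0.000255) and 1.77 (SE 0.30, adjusted p = 0.000944) on the log2 scale. Claudins, the strand-forming proteins of tight junctions, rose as well, with Cldn4 at 1970 ± 267 normalized counts in wild-type siGLO and 3447 ± 192 in Stag1-/- siGLO (SD, n = 3). The gene that fell was Dsg2, a desmosomal cadherin, from 1334 ± 86.2 to 676 ± 43.7. Of 11 adherens junction partners 7 rose and 1 fell (Pvrl1, nectin-1, by 0.33, SE 0.11), with a median of 0.34. Of 12 epithelial regulators 4 rose and 0 fell, led by Grhl2, a transcription factor that activates Cdh1 (1.08, SE 0.30, adjusted p = 0.0237), and the replicate block gave 6 rises and 1 fall.

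In Stag2-/- cells the genes called in these lists included rises and falls, beside 28.3% of all genes called in Stag2-/- siGLO and 43.9% in Stag2-/- siStag1. Of the 21 tight junction, desmosome and keratin genes 3 rose and 3 fell in Stag2-/- siGLO (median -0.23), and 6 rose and 6 fell in Stag2-/- siStag1 (median -0.07). Dsg2 fell by 1.48 and 2.02 on the log2 scale (SE 0.15 each, edgeR adjusted p = 6.93e-06 and 7.88e-08). Krt8, Krt18 and Krt19 fell in Stag2-/- siStag1, by 0.96 (SE 0.31), 0.71 (SE 0.25) and 0.84 (SE 0.32). The largest rises were in Marveld2, the tricellulin of tricellular junctions, in Stag2-/- siGLO (0.74, SE 0.21) and in the desmosomal cadherin Dsc2 in Stag2-/- siStag1 (1.11, SE 0.27). Of the 11 adherens junction partners 1 rose and 1 fell in Stag2-/- siGLO and 4 rose and 2 fell in Stag2-/- siStag1, with Pvrl1 the largest rise in each (0.40 and 0.86, SE 0.10 each). Ctnna1, the alpha-catenin that links cadherins to actin, fell by 0.46 and 0.53 (SE 0.08 each, adjusted p = 0.000744 and 8.09e-05). Of the 12 epithelial regulators 1 rose and 2 fell in Stag2-/- siGLO, and 2 rose and 4 fell in Stag2-/- siStag1, with the splicing factor Esrp1 the largest rise in each (0.81 and 1.03, SE 0.11 each) and the epithelial factor Elf3 the largest fall (-1.18, SE 0.22, and -1.69, SE 0.23). When the knockouts were compared directly, 16 of the 21 junction and keratin genes were higher in Stag1-/- cells and 1 was lower (18 and 1 with the block). The median difference was 0.79, and of all genes tested 12.7% were higher and 12.9% lower in Stag1-/- cells.

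Among the other transcription factors of the transition, Zeb2 had the largest change. Of 10 tested of 13 listed, 3 rose and 0 fell in Stag1-/- siGLO, 5 rose and 1 fell in Stag2-/- siGLO, and 5 rose and 2 fell in Stag2-/- siStag1, beside 20.0%, 28.3% and 43.9% of all genes called. The medians were 0.17, 0.39 and 0.61. Zeb2, the paralog of Zeb1 that also acts in neural development, was at 40.8 ± 14.4 normalized counts in wild-type siGLO, 31.4 ± 5.36 in Stag1-/- siGLO, 182 ± 90.2 in Stag2-/- siGLO and 592 ± 371 in Stag2-/- siStag1 (SD, n = 3). It rose by 2.15 (SE 0.45, edgeR adjusted p = 0.00349) and 3.85 (SE 0.45, adjusted p = 9.3e-06) on the log2 scale in the Stag2-/- conditions. Snai3, a Snail family member, fell in both Stag2-/- conditions (-0.50, SE 0.17, and -1.26, SE 0.18). Of 9 corepressors of Snail and Zeb proteins, 1 rose in Stag1-/- siGLO (Ctbp2, 0.46, SE 0.17), 1 in Stag2-/- siGLO (Ctbp1, 0.38, SE 0.07) and 4 in Stag2-/- siStag1 (Ctbp1 again the largest, 0.44, SE 0.07), beside the same shares of all genes. In Stag1-/- siGLO the block gave 1 rise and 2 falls.

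The called genes of the mesenchymal program included rises and falls, beside 20.0%, 28.3% and 43.9% of all genes called in Stag1-/- siGLO, Stag2-/- siGLO and Stag2-/- siStag1. Of 19 mesenchymal effectors tested of 20 listed, 8 rose and 3 fell in Stag1-/- siGLO (9 and 4 with the block), 5 rose and 4 fell in Stag2-/- siGLO, and 4 rose and 3 fell in Stag2-/- siStag1, with medians of 0.07, 0.21 and 0.15. Tagln, the actin-binding protein transgelin of smooth muscle, rose in both single knockouts, from 357 ± 75.0 normalized counts in wild-type siGLO to 2061 ± 236 in Stag1-/- siGLO and 1045 ± 416 in Stag2-/- siGLO (log2 fold changes 2.53, SE 0.40, and 1.55, SE 0.39, edgeR adjusted p = 0.00046 and 0.011). Itgb3, the integrin beta-3 subunit, fell in both Stag2-/- conditions (-1.17, SE 0.30, and -1.85, SE 0.31). Cdh11, a mesenchymal cadherin, was the largest fall in Stag1-/- siGLO (-2.30, SE 0.84) and the largest rise in Stag2-/- siStag1 (2.34, SE 0.53), but at 5.17 ± 1.42 normalized counts in wild-type siGLO it was near the limit of measurement. Of 12 TGF-beta pathway genes, the best known upstream signal of the transition, 4 rose and 1 fell in Stag1-/- siGLO (with the block, 6 and 2), 3 rose and 3 fell in Stag2-/- siGLO, and 5 rose and 4 fell in Stag2-/- siStag1, beside the same shares of all genes. Tgfbr3, the co-receptor betaglycan, was the largest fall in all 3 (-1.49, -1.41 and -1.35, SE 0.19 each). The ligand Tgfb3 was the largest rise in Stag1-/- siGLO and Stag2-/- siStag1 (1.93, SE 0.59, and 1.43, SE 0.60), and the ligand Tgfb2 in Stag2-/- siGLO (1.65, SE 0.42).

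**Figure D4:**
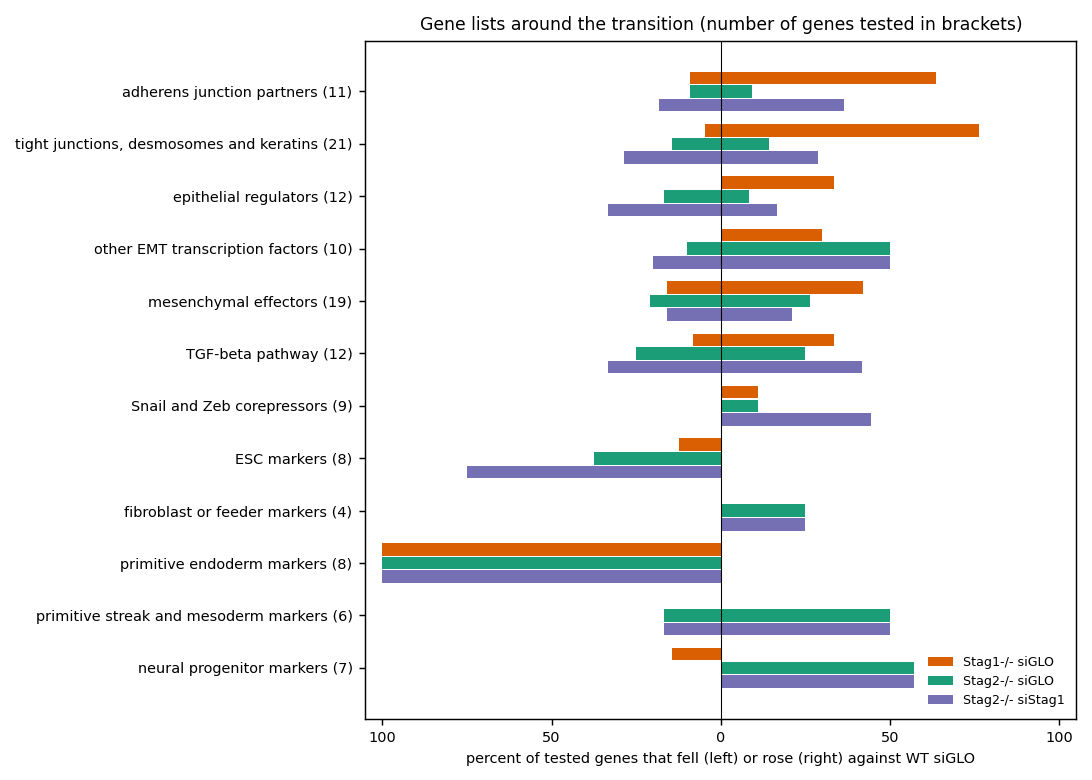
Percent of the tested genes of each list that rose (right of 0) or fell (left of 0) against wild-type siGLO at an edgeR adjusted p under 0.1, with the number tested in brackets. In Stag1-/- siGLO 16 of 21 tight junction, desmosome and keratin genes and 7 of 11 adherens junction partners rose, and all 8 primitive endoderm markers fell in each of the 3 conditions.

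Fibroblasts are rich in Vim, and their markers were at low levels. Of 8 fibroblast or feeder markers 4 were tested, of which edgeR called 0 in Stag1-/- siGLO (1 at an unadjusted p under 0.05, 1 by DESeq2, and 1 fell under the replicate block), and 1 rose in each Stag2-/- condition (Col3a1, adjusted p = 0.0918 and 0.0807 in edgeR, with 42.1 ± 47.4 and 38.6 ± 40.5 normalized counts), while DESeq2 called 1 and 3. The summed level of the list was 299 to 556 in wild-type siGLO, 407 to 575 in Stag1-/- siGLO, 327 to 652 in Stag2-/- siGLO, 291 to 362 in wild-type siStag1 and 391 to 454 in Stag2-/- siStag1. These ranges overlapped wild-type siGLO in all conditions, and Lum and Dcn were at 0 in all wild-type siGLO libraries, Dcn in Stag1-/- siGLO, Lum in wild-type siStag1 and Postn in Stag2-/- siStag1. Dcn, which encodes the matrix proteoglycan decorin and did not pass the filter, was at 7.08 to 9.86 normalized counts in the Stag2-/- siStag1 libraries. Cells of the primitive streak undergo the transition in the embryo, and of 6 such markers tested of 8 listed 0 were called in Stag1-/- siGLO by edgeR (1 at an unadjusted p under 0.05, 1 by DESeq2, and 1 rose under the replicate block). In each Stag2-/- condition 3 rose, led by the signal Fgf8 (4.52 and 3.70, SE 0.89 each), and 1 fell, the T-box factor Eomes (-0.87, SE 0.24, and -1.44, SE 0.25). Fgf8 was widely spread, at 38.1 to 525 normalized counts in Stag2-/- siGLO and 59.1 to 233 in Stag2-/- siStag1. In wild-type siGLO it was at 9.68 to 16.3. Of all genes, 13.9% rose and 14.4% fell in Stag2-/- siGLO, and 22.6% rose and 21.3% fell in Stag2-/- siStag1. Their summed level was 266 to 380 in wild-type siGLO, 300 to 353 in Stag1-/- siGLO, 279 to 337 in wild-type siStag1, 283 to 440 in Stag2-/- siStag1, and 296, 1203 and 588 in the Stag2-/- siGLO libraries. Replicate 1 of Stag2-/- siGLO was within the wild-type range of this list. Msgn1 was at 0 in wild-type siGLO, in Stag1-/- siGLO and in wild-type siStag1. The part of these cells in the Vim and Cdh2 values was not tested.

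**Figure D5:**
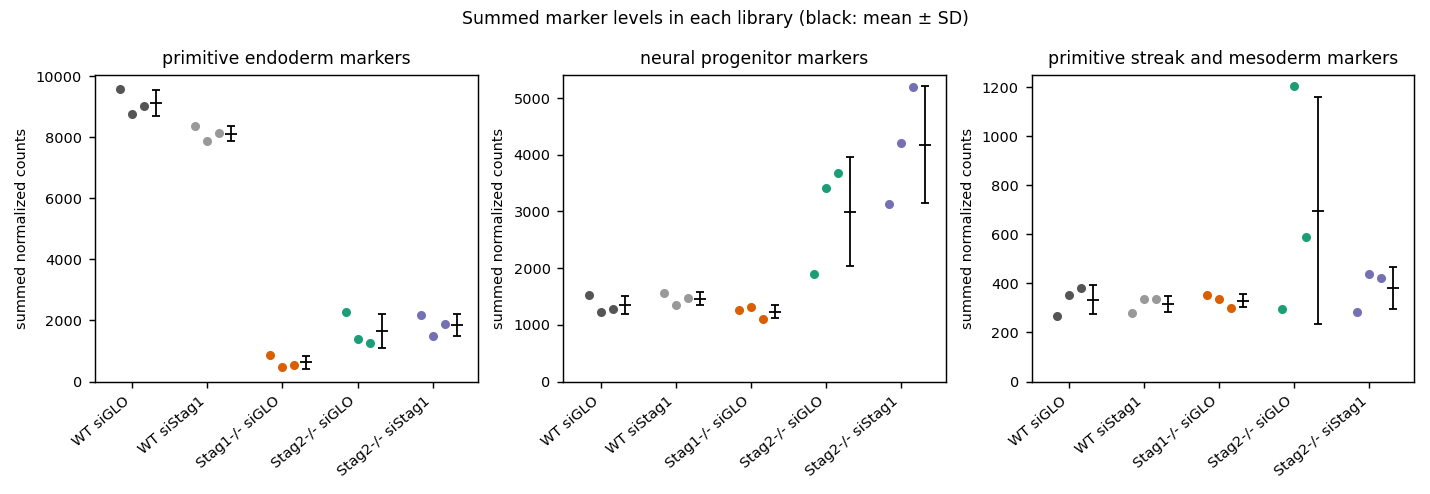
Summed normalized counts of the primitive endoderm, neural progenitor and primitive streak and mesoderm markers in each library (points), with the mean and SD of 3 libraries in black. The endoderm sum is 7860 to 9593 in wild-type libraries and 480 to 2276 in knockout libraries, and the neural sum is 1904 to 5196 in Stag2-/- libraries and 1110 to 1570 in the others.

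Over the 15 libraries, the genes with the most similar log2 level to each member were found by Pearson's r, as a description over libraries that share their clones and conditions. For Cdh2 they were Ctbp1 (r = 0.96), a corepressor that Zeb proteins recruit, and Sox13 (r = 0.96). Those for Vim were Kdm2b (r = 0.96) and Arhgef26 (r = 0.95), those for Epcam were Aldh7a1 (r = 0.95) and Grb7 (r = 0.95), and those for Zeb1 were Fan1 (r = 0.93) and Usp17la (r = 0.89). Cdh1 was most similar to Mcl1 (r = 0.91) and Gfer (r = 0.91), and Cdh3 to Macrod1 (r = 0.93) and St6galnac6 (r = 0.92). The low-count members had looser matches, with Wwox (r = 0.87) and Pnma1 (r = 0.85) for Snai1, Rara (r = 0.85) for Snai2, and Cpz (r = 0.90) and Mgea5 (r = 0.88) for Twist1. Among all pairs of members, those with the largest r in size were Vim with Zeb1 (0.75), Cdh3 (-0.70) and Cdh2 (0.69), Cdh2 with Snai1 (-0.63) and Cdh1 (-0.63), Zeb1 with Epcam (-0.63) and Cdh3 (-0.61), and Epcam with Snai1 (-0.59). Epcam and Cdh2 had r = 0.44, and the neighbours Cdh1 and Cdh3 had r = -0.03.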

How the data were processed

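PolyA RNA-seq was made from 15 mESC libraries, 3 in each of 5 conditions. Per the labels and the study's methods the authors used STAR and mm10 for the alignment of paired-end reads, and the deposited values are raw counts per gene, with no normalization; the counting tool, annotation and strand setting are not given in the sources used here. The 4 summary lines of each table (unmapped, multimapping, no feature and ambiguous reads), 19.8% to 23.4% of all reads, were left out.

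Genes were kept with edgeR's filterByExpr (minimum count 10, minimum total 15), which left 14508. Counts were normalized by TMM in edgeR 4.0.16 (R 4.3.3) and tested with its quasi-likelihood test, fitting a mean for each of the 5 conditions, and Benjamini-Hochberg adjustment over all genes tested, at the study's threshold of 0.1. Normalized counts are counts over the TMM-scaled library size, multiplied by the mean of these sizes. The standard error is the log2 fold change divided by the square root of F. Positions and exon lengths came from GENCODE M21 (mm10), in which 98.5% of gene names were matched, and promoters from RefSeq (GRCm38.p6). No pair of libraries of 1 condition was a copy.

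The alternatives were DESeq2 1.42.0, its size factors in edgeR, scaling by library size alone, other filters (none, or a minimum of 10 in all libraries), a fit of just the 2 groups compared, a threshold of 0.05, the replicate number as a block, and the omission of single libraries. The replicate numbers come from the labels, which do not say what they share. Same-numbered libraries deviated together (every correlation of deviations over 0.1) in the comparisons of wild-type siGLO with Stag1-/- siGLO (0.11 to 0.23) and with wild-type siStag1 (0.13 to 0.40), of Stag1-/- with Stag2-/- siGLO (0.18 to 0.24), and of both Stag2-/- conditions (0.24 to 0.63). There the blocked value is printed where it changes a member's call or moves a list's count of calls by over 1.5 times.

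The members, lists and tests were chosen with earlier results of these data known. The genes named are all 9 members, Stag1 and Stag2, the called gene with the largest rise and fall of each list in each comparison of knockout cells with wild-type siGLO, and the 2 genes most correlated with each member. The keratins Krt8 and Krt18, Cldn4, and the values given for Zeb2 and Tagln in conditions where they were not the largest change, were chosen after their values were seen, as were Dcn, Lum, Postn and Msgn1, markers named where they were at 0, and Gm10125, named for its overlap with Zeb1. A few genes that this rule names are not reported here.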

Additional observations from a re-analysis of the deposited data

Results flagged for a closer look

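For 5 of the 9 genes the effect of the Stag1 knockout differed from that of the Stag2 knockout in edgeR, against 25.7% of all genes tested. The knockouts were compared directly, which is the test of the difference of their effects against the shared wild-type siGLO libraries. The log2 difference, Stag1-/- minus Stag2-/-, was -1.57 for Cdh2, -1.75 for Vim, -0.87 for Zeb1, 0.54 for Cdh3 and 0.27 for Epcam. The Cdh3 and Epcam calls ended when certain single libraries were left out, as given above. Vim had opposite directions in the 2 knockouts, with 3 of 3 Stag1-/- libraries below and 3 of 3 Stag2-/- libraries above the wild-type siGLO range. Epcam rose in both knockouts and differed in size. Each knockout was 1 clone, so genotype and clone cannot be told apart. Single libraries were not examined for outliers, since each condition had 3.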

How the results depend on the processing

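Of 72 values (9 genes in 8 comparisons), all kept their direction and side of the threshold with DESeq2 size factors and without an expression filter. DESeq2 added 3 calls, the fit of only the libraries compared added 3 of 69 values it could give, library size alone added 1 and ended 1, an adjusted p under 0.05 ended 3, and at least 10 counts in every library ended 1 of 64 and left out Snai2. The replicate block added 5 calls and ended none. For wild-type siStag1 against wild-type siGLO, where edgeR called 0 members, the replicate block and the fit of only the libraries compared called 1 and DESeq2 called 2. For siStag1 within Stag2-/- cells, where it called 0, the replicate block and DESeq2 called 1. For Stag2-/- against wild-type with siStag1, an adjusted p under 0.05 left 3 of 5, and the block, whose numbers did not pair these libraries, called Cdh1 as well (adjusted p = 0.0842). In the comparisons of Stag2-/- cells with wild-type siGLO the numbers did not pair either. In Stag2-/- siGLO the block gave 4 rises and 9 falls (3 and 3 without it) for tight junctions, desmosomes and keratins. It gave 3 and 3 (1 and 2) there for the epithelial regulators and 4 and 1 (1 and 0) for the corepressors. For the adherens junction partners it gave 2 and 1 (1 and 1), and for the primitive streak markers 4 and 2 (3 and 1). In Stag2-/- siStag1 it gave 5 and 1 (4 and 0) for the corepressors and 1 and 1 (1 and 0) for the fibroblast markers. There the neural progenitor markers had 4 and 1 (4 and 0), the mesenchymal effectors 4 and 5 (4 and 3), and the primitive streak markers 3 and 2 (3 and 1). Leaving out each library gave 3 to 6 calls for Stag1-/- against Stag2-/- siGLO (3 without Stag1-/- siGLO replicate 3), 0 to 1 for siStag1 within Stag2-/- cells (1 without Stag2-/- siGLO replicate 2) and 3 to 5 for Stag2-/- against wild-type with siStag1 (3 without wild-type siStag1 replicate 3). The directions that turned in such fits were all of values not called. Against wild-type siGLO they were Snai2 in Stag1-/- (-0.87 to 0.057), Cdh3 in Stag2-/- (-0.33 to 0.052), Snai1 in wild-type siStag1 (-0.51 to 0.018), and Cdh1 (-0.34 to 0.068), Cdh3 (-0.082 to 0.19) and Snai2 (-0.094 to 1.51) in Stag2-/- siStag1. Between the knockouts they were Snai1 (-0.0088 to 0.35) and Twist1 (-0.39 to 0.052). For siStag1 within Stag2-/- cells they were Cdh1 (-0.19 to 0.22), Cdh3 (-0.028 to 0.35), Zeb1 (-0.32 to 0.011), Snai1 (-0.18 to 0.18) and Snai2 (-0.55 to 0.83), and for the difference of siStag1 effects Cdh1 (-0.34 to 0.074), Cdh3 (-0.22 to 0.16) and Twist1 (-0.32 to 0.12). Snai2 and Snai1 had the lowest raw counts of the members, 6 to 48 and 25 to 99. The cause of these changes was not tested.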
